A study of Mus musculus with 6 samples.

Results

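The genes described here are 10 transcripts of the NRF2 antioxidant response, namely Nfe2l2, Keap1, Nqo1, Hmox1, Gclc, Gclm, Txnrd1, Srxn1, Gsr and Prdx1. They were taken by symbol from a list, through GRCm38 Ensembl identifiers, out of 55487 genes in the RSEM gene tables. The list was chosen with earlier results of these data known. All 10 passed the filter on low counts that left 16603 genes. The cells were mouse embryonic fibroblasts (MEFs), primary cells grown from embryos, kept untreated in normal culture. One library was made from wild-type (WT) and one from knockout (KO) cells at each of passages 2, 3 and 4, where a passage is a round of detaching and replating. The knocked-out gene, the strain, the embryo age and the number of embryos or cultures are not given in the labels, and the series title is about mTORC1 and granulomas in sarcoidosis. Nothing in the labels says that the libraries of a genotype came from separate cultures or animals. The p-values then measure only the spread between libraries, which may be technical. With genotype tested alone, that spread also holds any change with passage, because each library of a genotype came from a different passage.

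NRF2, the protein of Nfe2l2, is a transcription factor that KEAP1 holds in the cytoplasm and marks for degradation. Electrophiles and oxidants modify cysteines of KEAP1, NRF2 then accumulates, and with a small MAF partner it binds antioxidant response elements beside genes for glutathione synthesis, thioredoxin recycling, quinone reduction and haem breakdown. In fibroblasts, as in most cells, this set responds to oxidative and electrophilic stress in culture.

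Library totals ran from 24853121 to 67760880 expected counts. Xist had 5 to 12 counts in the WT libraries and 15654 to 29034 in the KO libraries, while the Y-linked Ddx3y had 1773 to 3654 counts in WT and 0 to 23 in KO, so genotype and sex cannot be told apart. The sample titles gave the genotype here. A separate genotype tag matches them except at passages 3 and 4, where it also calls the KO cells WT. The fibroblast identity of the cultures was plain in markers such as Col1a1 (21280 CPM on average in WT and 11030 in KO). By edgeR 5 of 11 fibroblast markers were lower in KO, against 1.55% of all genes. Vim (log2 0.20, edgeR adjusted p = 0.334) and S100a4 (log2 0.41, edgeR adjusted p = 0.51) of that list had positive differences that did not pass. The muscle marker Acta1 was higher in KO (log2 2.57, edgeR adjusted p = 0.0391) and the endothelial marker Flt1 lower (log2 -1.02, edgeR adjusted p = 0.0382). Each was the only marker called by genotype, among 6 tested muscle and 11 tested endothelial markers. Other markers of both lists had differences of the opposite sign, so these calls do not describe the cell types as a whole. The part of these cell types in the members' genotype differences was not tested. CPM is the count of a gene relative to the TMM-scaled library total. Macrophage markers summed to 518, 274 and 80.9 CPM in WT at passages 2, 3 and 4, and to 372, 121 and 59.9 CPM in KO.

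The antioxidant response element has the core TGACNNNGC, which reads GCNNNGTCA on the other strand. It was searched on both strands in RefSeq promoter windows of GRCm38.p6, which run from 250 bases before a start site to 50 after it. Of 27025 genes with a window, 3781 (14%) held the core, as did 12.4% of all 32851 windows. Among the members, 7 had a window and 5 of these held it. The matches are shown because these genes share the same regulator by textbook knowledge. Capitals mark the core, and each sequence is written along the strand of the gene.
Nfe2l2: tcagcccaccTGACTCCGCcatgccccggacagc
Gclm: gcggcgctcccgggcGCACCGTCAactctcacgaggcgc
Txnrd1: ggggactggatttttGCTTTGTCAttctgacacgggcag
Prdx1: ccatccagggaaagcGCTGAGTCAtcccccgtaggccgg
Srxn1: GCTAGGTCA

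The Nfe2l2 stretch is chr2:75704880-75704913 on the minus strand, with the core at -240 to -232 from the start site, where -1 is the base before it. The Gclm stretch is chr3:122245408-122245446 on the plus strand, with the core at -134 to -126. The Txnrd1 stretch is chr10:82859099-82859137 on the plus strand, in the window of 1 of the 3 RefSeq start sites of the gene, with the core at -92 to -84. The Prdx1 stretch is chr4:116685451-116685489 on the plus strand, with the core at -133 to -125. The Srxn1 core lies just inside the transcript, chr2:152105552-152105560 on the plus strand, at positions 29 to 37. In Prdx1 the core overlaps the AP-1 motif TGANTCA, which 7.81% of all windows held. The windows of Keap1 and Nqo1 held no core. A match describes the sequence only.

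Levels per length differed widely between members. In TPM (a unit of transcript abundance scaled for length), Prdx1 led with 466 to 764 TPM over the 6 libraries, followed by Hmox1 (95.4 to 358 TPM) and Txnrd1 (80.7 to 212 TPM). These genes kept that order at the top in all 6 libraries. Nfe2l2 itself lay in the middle with 67.1 to 98.9 TPM, beside Gclm with 45.1 to 110 TPM. Gsr (27.7 to 54.6 TPM), Srxn1 (23.2 to 70.2 TPM) and Keap1 (21.1 to 30.1 TPM) came next. Gclc (6.6 to 28.6 TPM) and Nqo1 (5.2 to 27.3 TPM) were lowest, with ranges that overlapped almost completely. Only between Prdx1 and Hmox1 did neighbours in this order not overlap.

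**Figure D1:**
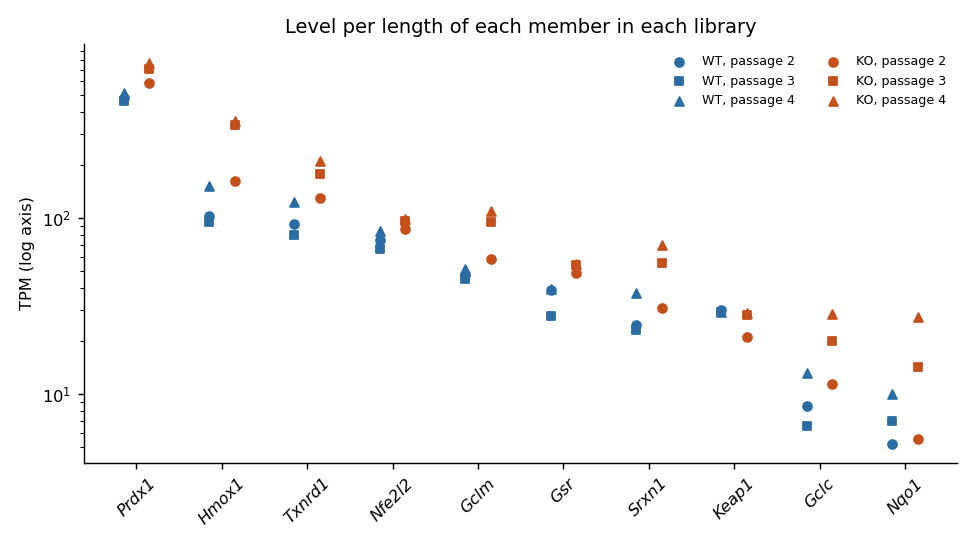
TPM of each member on a log axis, ordered by its mean over the 6 libraries; blue marks WT, orange KO, and shapes mark passages 2, 3 and 4, with 1 library per point. Prdx1 stays above all other members, from 466 to 764 TPM, and Gclc and Nqo1 are lowest.

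The 2 genotypes were compared to ask which transcripts differed between KO and WT cells. The 8 target genes had higher CPM in KO at each passage, as did 24.1% of all genes, by 1.27-fold for Prdx1 to 2.20-fold for Hmox1 in the fit. Keap1 was lower at each passage, as were 27.4% of all genes. By the edgeR quasi-likelihood test with genotype alone 0 of 10 members passed an adjusted p of 0.05, against 2.48% of all genes. In that test 8 members, and 3543 of all 16603 genes, had an unadjusted p under 0.05. With passage as a block, which compares the genotypes within each passage, 8 members rose and 0 fell, against 11.1% of all genes called, 4.69% higher and 6.37% lower. These 8 were Nqo1, Hmox1, Gclc, Gclm, Txnrd1, Srxn1, Gsr and Prdx1. DESeq2 without the block called 5 (Hmox1, Gclc, Txnrd1, Gsr and Prdx1), against 10% of all genes called, 4.48% higher and 5.52% lower. The blocked count was 6, 2 and 6 when both libraries of passage 2, 3 or 4 were left out. The number of all genes called differed widely between those fits, so these counts are not alike. It is given in the section on processing below. Hmox1 and Txnrd1 passed in all 3 of those fits. The members' median log2 difference was 0.67 and that of all genes -0.01.

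**Figure D2:**
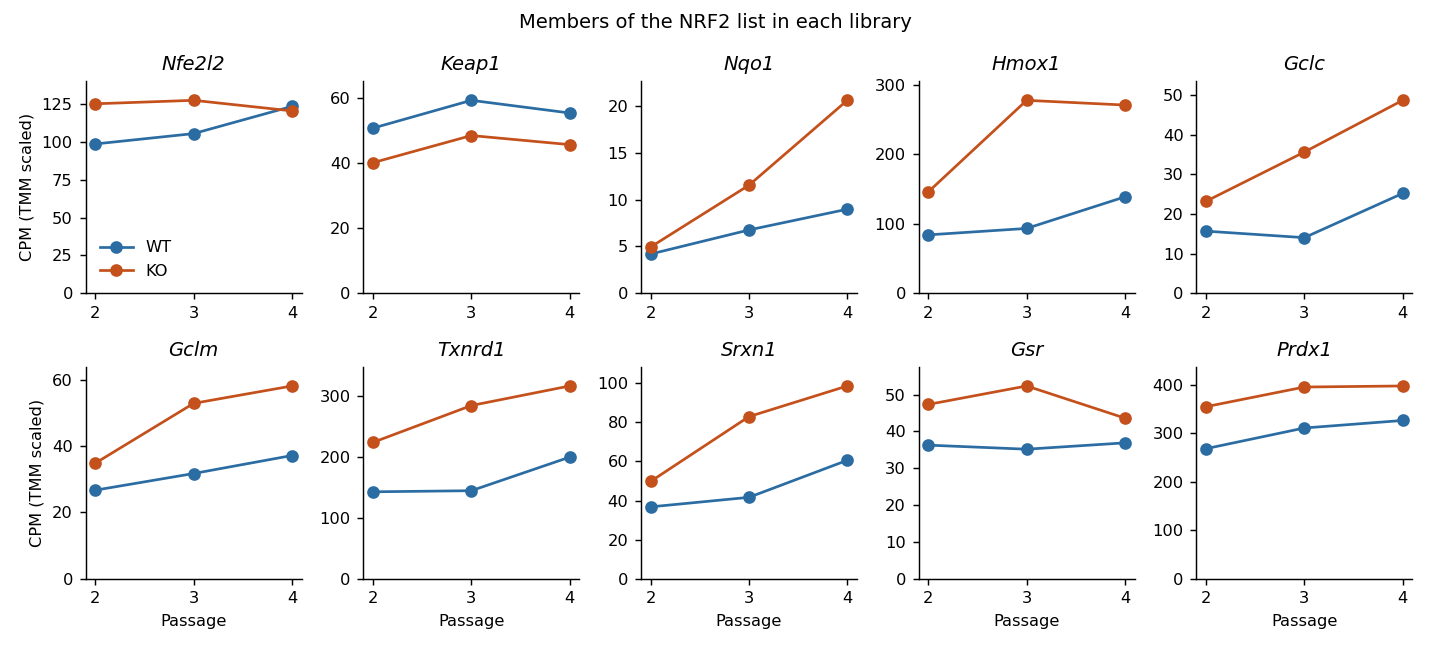
CPM of each member (TMM scaled, axes from 0) against passage in WT (blue) and KO (orange), 1 library per point. KO lies above WT at all 3 passages for 8 members, below it for Keap1, and crosses it at passage 4 for Nfe2l2.

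Among the regulators, Nfe2l2 (ENSMUSG00000015839, GRCm38 chromosome 2, 75675513 to 75704641) had 98.7, 106 and 124 CPM in WT and 125, 128 and 121 CPM in KO at passages 2, 3 and 4. KO was higher at passages 2 and 3 and level with WT at passage 4, so the groups overlapped. The log2 difference was 0.19 ± 0.11 SE (edgeR adjusted p = 0.36, and 0.25 with the block). Keap1 (ENSMUSG00000003308, chromosome 9, 21229730 to 21239361), the adaptor that delivers NRF2 to a CUL3 ubiquitin ligase, had 50.8, 59.4 and 55.5 CPM in WT and 40.2, 48.5 and 45.7 CPM in KO. Every KO library was below every WT library, as for 14.1% of all genes. The groups did not overlap for 5 members in all, and for 27.2% of all genes. Its log2 difference of -0.30 ± 0.11 SE did not pass (edgeR adjusted p = 0.181, and 0.0671 with the block). An antisense gene, Gm16754, overlaps Keap1 and shares 6.88% of its 64-base words, and strand handling is not given in the sources used here. In TPM Keap1 was 30.1, 29.4 and 29.1 in WT and 21.1, 28.3 and 29 in KO, so close at passages 3 and 4. The ratio of Nfe2l2 to Keap1 in TPM was 2.52, 2.28 and 2.92 in WT and 4.11, 3.42 and 3.41 in KO.

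Hmox1 (ENSMUSG00000005413, chromosome 8, 75093621 to 75100589) encodes haem oxygenase 1, which splits haem into biliverdin, carbon monoxide and iron. It had 83.8, 93.1 and 139 CPM in WT and 146, 277 and 271 CPM in KO at passages 2, 3 and 4. The lowest KO library, passage 2, was just above the highest WT library, passage 4. KO was higher by 1.14 ± 0.29 SE on the log2 scale (105 ± 29.3 against 231 ± 74.1 CPM, SD, n = 3, edgeR adjusted p = 0.0938), and with the block by 1.11 ± 0.15 (edgeR adjusted p = 0.00945). Macrophages also express Hmox1. Their summed markers, of which Lyz2 was 272 of 518 CPM in WT at passage 2, were lower in KO at each passage, but 0 of 18 tested markers passed by genotype. The part of macrophages in the Hmox1 difference was not tested.

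Of the glutathione genes, Gclc (ENSMUSG00000032350, chromosome 9, 77754535 to 77794485) encodes the catalytic subunit of glutamate-cysteine ligase, the first enzyme of glutathione synthesis. Its CPM was 15.7, 14.03 and 25.2 in WT and 23.2, 35.7 and 48.7 in KO. KO was higher at each passage, but KO at passage 2 lay below WT at passage 4. The log2 difference was 0.98 ± 0.32 SE (edgeR adjusted p = 0.147) and 0.96 ± 0.16 with the block (edgeR adjusted p = 0.0141). Its modifier subunit gene Gclm (ENSMUSG00000028124, chromosome 3, 122245557 to 122270732), which carries the core shown above, had 26.7, 31.7 and 37.1 CPM in WT and 34.8, 52.8 and 58.1 CPM in KO. KO at passage 2 again lay below WT at passage 4, and the difference was 0.61 ± 0.21 SE (edgeR adjusted p = 0.155, and 0.0193 with the block). Per length, Gclc was 0.146 to 0.261 of Gclm in the 6 libraries. Gsr (ENSMUSG00000031584, chromosome 8, 33652523 to 33698163), which reduces oxidised glutathione with NADPH, had 36.3, 35.2 and 36.9 CPM in WT and 47.3, 52.3 and 43.6 CPM in KO. All KO libraries were above all WT libraries, and WT varied little. The difference was 0.40 ± 0.10 SE (edgeR adjusted p = 0.0871), and with the block the edgeR adjusted p was 0.0498.

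In the thioredoxin branch, Txnrd1 (ENSMUSG00000020250, chromosome 10, 82833951 to 82897712) encodes the cytosolic selenoprotein that reduces thioredoxin. It had 143, 145 and 200 CPM in WT and 224, 285 and 317 CPM in KO, with no overlap. The log2 difference was 0.76 ± 0.18 SE (edgeR adjusted p = 0.0756) and 0.76 ± 0.10 with the block (edgeR adjusted p = 0.00735). Prdx1 (ENSMUSG00000028691, chromosome 4, 116685544 to 116700822), an abundant peroxiredoxin that removes hydrogen peroxide, had 268, 311 and 326 CPM in WT and 355, 395 and 397 CPM in KO. Its KO libraries were likewise all above WT, by a smaller 0.34 ± 0.11 SE (edgeR adjusted p = 0.141, and 0.0475 with the block). Over all genes, 13.1% had every KO library above every WT library, and 4 members did (Hmox1, Txnrd1, Gsr and Prdx1). Srxn1 (ENSMUSG00000032802, chromosome 2, 152105516 to 152111376) encodes sulfiredoxin, which restores over-oxidised peroxiredoxins. It had 36.8, 41.7 and 60.6 CPM in WT and 49.8, 82.9 and 98.6 CPM in KO. KO at passage 2 lay below WT at passage 4, and the difference was 0.74 ± 0.28 SE (edgeR adjusted p = 0.199, and 0.0151 with the block). In TPM, Srxn1 was 0.0508, 0.0499 and 0.0729 of Prdx1 in WT and 0.0528, 0.0791 and 0.0919 in KO.

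Nqo1 (ENSMUSG00000003849, chromosome 8, 107388225 to 107403206), which reduces quinones by 2 electrons and is a standard readout of NRF2, was the least abundant member. It had 4.18, 6.76 and 8.98 CPM in WT and 4.94, 11.6 and 20.6 CPM in KO. The genotypes were close at passage 2 and apart at passages 3 and 4, with log2 differences of 0.24, 0.77 and 1.20. The overall difference was 0.91 ± 0.51 SE (edgeR adjusted p = 0.358) and 0.76 ± 0.19 with the block (edgeR adjusted p = 0.0475). Without 1 library the unblocked difference ran from 0.33 (without KO passage 4) to 1.28 (without KO passage 2). The other 9 members kept their direction when any 1 library was left out, for example from 0.99 to 1.40 for Hmox1 and from 0.70 to 1.28 for Gclc.

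**Figure D3:**
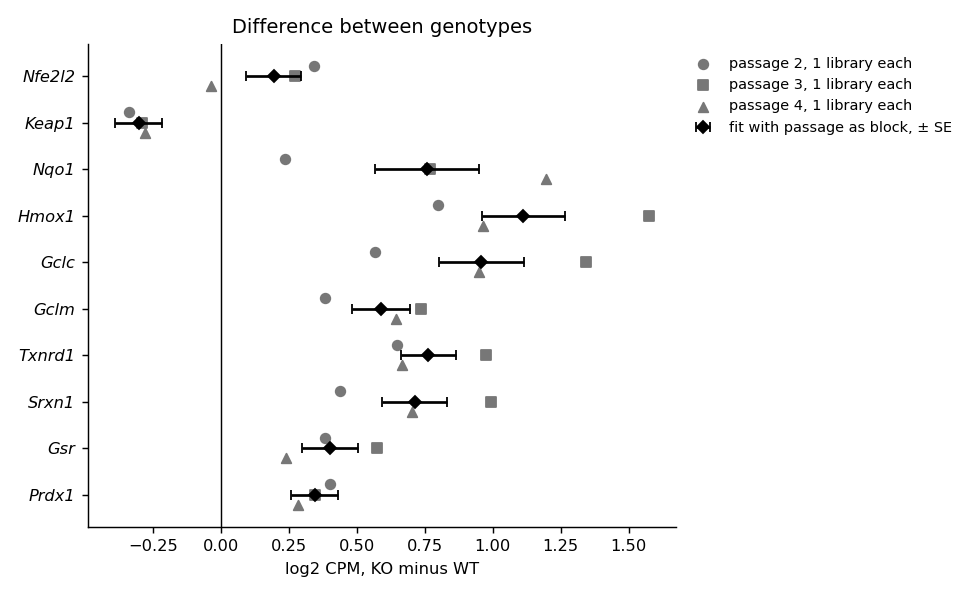
log2 CPM of KO minus WT for each member, with grey symbols for the difference within passage 2, 3 or 4 (1 library per genotype) and black diamonds with bars for the edgeR estimate ± SE with passage as a block. Hmox1 has the largest estimate (1.11), Keap1 is negative at all 3 passages, and Nqo1 goes from 0.24 at passage 2 to 1.20 at passage 4.

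Passage was tested as a slope with genotype as a covariate, to ask which transcripts changed as the cultures were passaged. Of the 10 members 4 rose (Nqo1, Srxn1, Gclc and Gclm) and 0 fell by edgeR, against 6.25% of all genes called, 2.78% rising and 3.48% falling. DESeq2 called 6 members, all higher, against 10.3% of all genes, 4.64% higher and 5.65% lower. The members' median slope was 0.27 per passage on the log2 scale, and that of all genes 0.00. In both genotypes CPM increased from passage 2 to 3 and again to 4 for 5 members (Nqo1, Gclm, Txnrd1, Srxn1 and Prdx1), as for 9.47% of all genes, and 0 members decreased at both steps, as 8.91% of all genes did. CPM was higher at passage 4 than at 2 in both genotypes for 8 members and for 32.2% of all genes. The count rests on single libraries: it was 0 without the KO library of passage 2 or of passage 4, 1 without WT passage 4, 2 without WT passage 2, 3 without KO passage 3 and 5 without WT passage 3. The call for Nqo1 ended without KO passage 2 or KO passage 4, and that for Srxn1 without any 1 library of passages 2 and 4.

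Nqo1 rose by 0.79 ± 0.12 SE per passage, a 1.73-fold step (edgeR adjusted p = 0.0105). The increase from passage 2 to 4 was 1.09 on the log2 scale in WT and 2.05 in KO. Srxn1 rose by 0.42 ± 0.07 SE per passage (edgeR adjusted p = 0.015) and Gclc by 0.43 ± 0.10 (edgeR adjusted p = 0.0409), a call that ended without WT passage 4 or any KO library. Gclm rose by 0.30 ± 0.07 SE per passage (edgeR adjusted p = 0.0409). That call ended without any 1 library but WT passage 3, with effective lengths as offsets (slope 0.23, edgeR adjusted p = 0.153) and in limma on log2(TPM + 1) values (0.25, limma adjusted p = 0.169). Effective length is the number of positions in a transcript where RSEM allows a fragment to start, averaged over isoforms by abundance. For Gclm it ran from 967 to 1166 bases. Hmox1 (0.40 ± 0.10, edgeR adjusted p = 0.0508) and Txnrd1 (0.25 ± 0.06, edgeR adjusted p = 0.0535) had slopes just outside the threshold, and both passed by DESeq2. Prdx1 (0.11, edgeR adjusted p = 0.282), Keap1 (0.08, edgeR adjusted p = 0.537), Nfe2l2 (0.07, edgeR adjusted p = 0.569) and Gsr (-0.02, edgeR adjusted p = 0.883) did not pass.

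Other cell types also moved with passage. By edgeR all 18 tested of 20 macrophage markers fell. Of the others, 5 of 11 tested endothelial, 6 of 7 adipocyte and 3 of 7 epithelial markers fell. So did 3 of 7 neural and glial and 3 of 6 muscle markers, against 3.48% of all genes. Of 11 fibroblast markers 0 passed, though not all were level. From passage 2 to 4 Lum went from 84.1 to 50.7 CPM in WT and from 32.3 to 12.8 CPM in KO. S100a4 went from 40.7 to 105 CPM in WT and from 81 to 95.2 CPM in KO. The macrophage markers Cd163 and Vsig4 were at or near 0 in all libraries and were not tested. Adgre1, a tested macrophage marker, went from 40.3 to 3.93 CPM in WT and from 25.1 to 3.24 CPM in KO. Fewer cells of a type and less RNA per cell cannot be told apart in bulk samples. The part of these cells in the members' slopes was not tested.

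**Figure D4:**
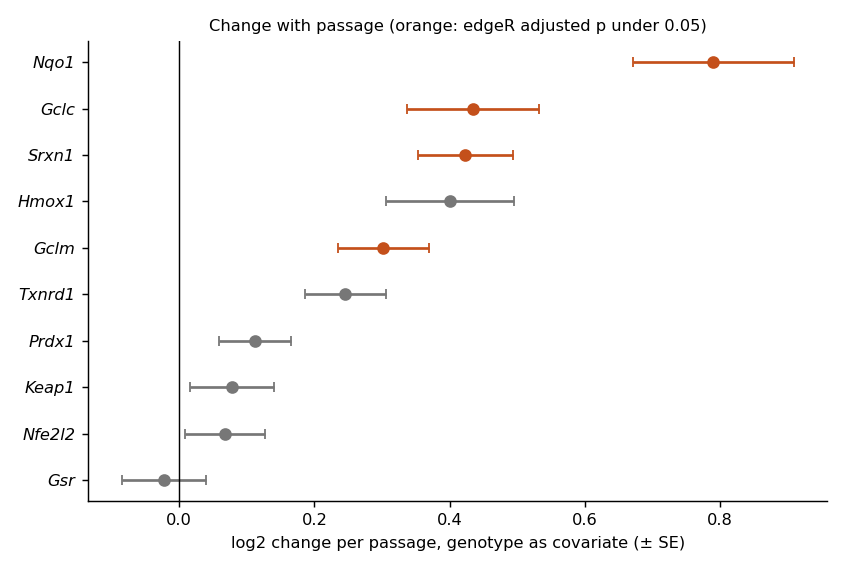
edgeR slope of each member in log2 units per passage, with genotype as a covariate; points are estimates over 6 libraries, bars are ± SE, and orange marks an adjusted p under 0.05. Nqo1 is highest at 0.79, and Gsr lies at -0.02.

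The difference between the genotypes in slope was tested as an interaction. By edgeR 0 of 10 members passed, and 0 of all 16603 genes did (0% called), although 1137 genes and 1 member had an unadjusted p under 0.05, and DESeq2 called 83 genes and 0 members. The member was Nqo1, whose slope was larger in KO by 0.47 ± 0.17 SE (edgeR adjusted p = 0.67). At the other end Nfe2l2 had a slope smaller in KO, at -0.19 ± 0.10 SE (edgeR adjusted p = 0.783).

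Across the 6 libraries the target genes followed each other in log2 CPM. Pearson's r was 0.988 for Gclm and Srxn1, 0.982 for Hmox1 and Txnrd1, and 0.976 for Gclc and Txnrd1. Keap1 was negatively correlated with all 9 others, from -0.041 with Nqo1 to -0.731 with Gsr. Gsr followed Nqo1 least among the targets (r = 0.356). These values describe 6 points that share genotype, passage and library scaling. Among 10727 other protein-coding genes whose log2 CPM averaged 2 or more, those most like a member were Sec24b for Hmox1 (r = 0.999), Alas1, the first enzyme of haem synthesis, for Gclm (r = 0.997), Ptpre for Txnrd1 (r = 0.997) and Pank2 for Nqo1 (r = 0.994). Between 66 genes (Nqo1) and 179 genes (Txnrd1) had r over 0.95 with a member.

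Of the other pathway genes, 157 were listed in 8 groups by role and 144 were tested. By genotype 1 rose and 1 fell (0.934% and 1.55% of all genes), and with the passage block 12 rose and 14 fell (4.69% and 6.37% of all genes). With passage 8 rose and 1 fell (2.78% and 3.48% of all genes). Genes named below from the blocked fit, other than Bach1 and Slc7a11, were chosen after their values were seen, and Ggt5, Mgst3 and Msra among them averaged below a log2 CPM of 2. The antioxidant response core was in the windows of 24 of 131 list genes with one (18.3%). The median log2 difference by genotype was 0.01, and the median slope was 0.07.

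**Figure D5:**
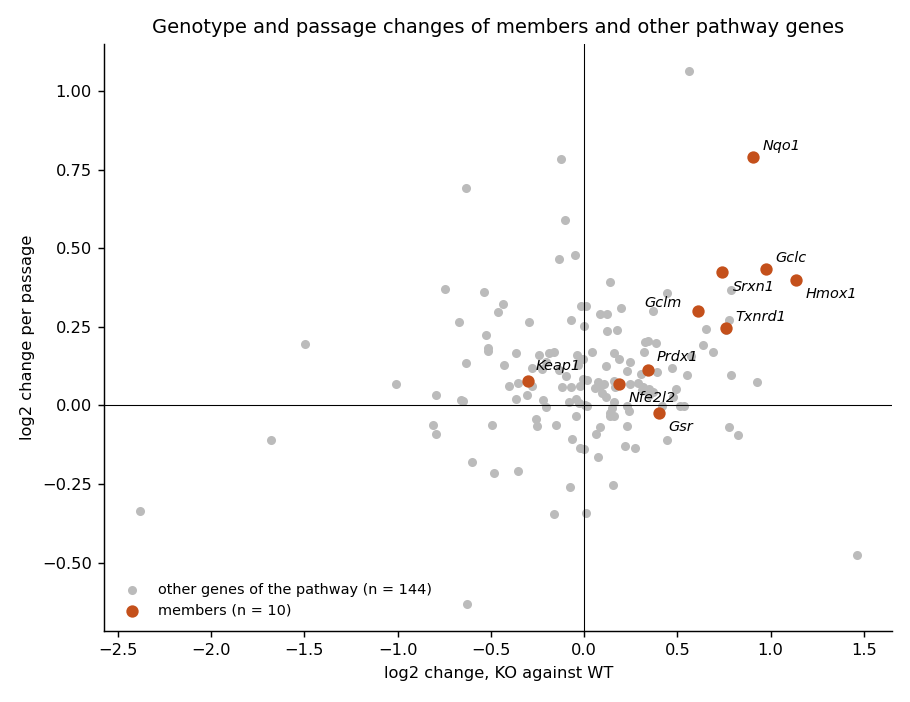
edgeR log2 change by genotype (KO against WT, horizontal) and per passage (vertical) for the 10 members (orange) and the 144 other tested pathway genes (grey). Nqo1, Gclc, Hmox1, Srxn1, Txnrd1 and Gclm lie in the upper right, and the other genes surround the origin.

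Among 21 regulators of NRF2, 0 passed by genotype and 1 rose with passage. That gene was Mafk, a small MAF partner of NRF2, with a slope of 0.30 ± 0.07 SE (edgeR adjusted p = 0.0487), a call that 8 of 12 alternatives ended. With the block 1 rose and 2 fell by genotype. One that fell was Bach1, a haem-sensitive repressor that competes with NRF2 at the same elements. Bach1 had 133, 140 and 169 CPM in WT and 95.8, 92.1 and 122 CPM in KO, all KO values being below all WT values (log2 -0.51, edgeR adjusted p = 0.109, and 0.0142 with the block). Maff rose (log2 0.51, edgeR adjusted p = 0.0343 with the block) and the X-linked Amer1, a WNT pathway protein that binds KEAP1, fell (log2 -0.58, edgeR adjusted p = 0.0266 with the block). Mafg (log2 0.25, edgeR adjusted p = 0.366), the related factor Nfe2l1 (log2 -0.28, edgeR adjusted p = 0.203) and Sqstm1, an autophagy receptor that binds KEAP1 (log2 0.34, edgeR adjusted p = 0.317), did not pass. Sqstm1 shares 15% of its 64-base words with other genes.

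Of 20 tested genes of glutathione synthesis and recycling 0 passed by genotype or passage, and with the block 2 rose and 3 fell by genotype. Slc7a11, the cystine importer that feeds glutathione synthesis, had 31.4, 24.5 and 35.5 CPM in WT and 43.1, 43.4 and 61.3 CPM in KO. All KO libraries were above WT (log2 0.69, edgeR adjusted p = 0.103, and 0.0135 with the block). Gss, the enzyme that completes glutathione synthesis, was the other that rose with the block (log2 0.79, edgeR adjusted p = 0.0235). Those that fell were Ggt5 (log2 -1.71, at a low 1.18 CPM in WT and 0.383 CPM in KO), the secreted peroxidase Gpx3 (log2 -0.80) and the glyoxalase Glo1 (log2 -0.35).

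Of 20 tested glutathione transferase genes 1 rose with passage, and with the block 0 rose and 3 fell by genotype, with a median log2 difference of -0.37 without the block. Those that fell were Gstm4 (log2 -0.68), Mgst1 (log2 -0.51) and Mgst3 (log2 -1.39, from 6.6 to 2.34 CPM). Without the block 14 of the 20 had a negative difference and 0 passed. The gene that rose was Gsta4, whose enzyme conjugates 4-hydroxynonenal, with 3.14, 4.18 and 11.3 CPM in WT and 3.32, 6.39 and 17.4 CPM in KO. It increased at each step in both genotypes, by 1.07 ± 0.12 SE per passage (edgeR adjusted p = 0.00391).

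Among 24 tested quinone, carbonyl and xenobiotic genes 2 rose with passage, and 1 fell by genotype. Ephx1, microsomal epoxide hydrolase, had 56.5, 111 and 181 CPM in WT and 59.2, 96.8 and 164 CPM in KO, with a slope of 0.78 ± 0.06 SE (edgeR adjusted p = 0.00117). The genotypes were close at each passage, and the calls for Ephx1 and Gsta4 held in all 12 alternatives to the passage fit. Esd, an esterase that completes formaldehyde detoxification with glutathione, rose by 0.27 ± 0.06 SE per passage (edgeR adjusted p = 0.0412), a call that 7 of 12 alternatives ended. Aldh1a1, a retinal dehydrogenase of low level, was the gene that fell by genotype, from 4.6 ± 1.152 to 0.891 ± 0.229 CPM (SD, n = 3, log2 -2.38, edgeR adjusted p = 0.0155); it lies outside the rule for named genes and was chosen after its values were seen. With the block it fell as well, and 3 rose by genotype, namely Esd (log2 0.80), the aldose reductase gene Akr1b3 (log2 0.64, 12.6% of its words shared) and the efflux pump gene Abcc4 (log2 0.47).

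Of 16 haem and iron genes 1 rose by genotype and 1 with passage. Flvcr1, known as a haem exporter, had 8.63, 6.29 and 7.66 CPM in WT and 13.7, 14.2 and 12.1 CPM in KO (log2 0.83 ± 0.16 SE, edgeR adjusted p = 0.0449). The groups did not overlap, but the call ended without any 1 of the 6 libraries, and Flvcr1 shares 14.4% of its 64-base words with other genes. With the block it passed again (edgeR adjusted p = 0.0196), as did the ferritin light chain gene Ftl1 (log2 0.56, edgeR adjusted p = 0.0271). Ftl1 shares 54.4% of its 64-base words with 8 other genes, 42.8% with the pseudogene Ftl1-ps1, so its count is uncertain. Slc48a1, a haem transporter of lysosomal membranes, rose by 0.39 ± 0.09 SE per passage (edgeR adjusted p = 0.0491), a call that ended without either passage 2 library or either passage 4 library.

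Thioredoxins and peroxiredoxins had 0 of 22 called by genotype, and 2 that rose with passage. These were Sesn3, a stress-induced sestrin (slope 0.37 ± 0.07 SE, edgeR adjusted p = 0.0227), and Msrb3, a methionine sulfoxide reductase (slope 0.25 ± 0.05 SE, edgeR adjusted p = 0.0309). The call for Sesn3 ended without WT passage 2, KO passage 2 or KO passage 4, and that for Msrb3 without any 1 library but WT passage 3. Txn1, the thioredoxin that Txnrd1 reduces, had 102, 130 and 114 CPM in WT and 163, 137 and 103 CPM in KO. Its KO value in CPM was above WT at passages 2 and 3 and below it at passage 4 (log2 0.22, edgeR adjusted p = 0.524). In TPM it was above WT at each passage (279.6, 258.2 and 208 in KO, 193, 205.4 and 194.5 in WT). With the block 2 genes of this list rose by genotype, the peroxiredoxin gene Prdx6 (log2 0.48) and the methionine sulfoxide reductase gene Msra (log2 0.96, from 2.34 to 4.41 CPM). The 3 that fell were Txnip, which encodes an inhibitor of thioredoxin (log2 -0.76, 14.6% of its words shared), Sesn1 (log2 -0.64) and Sesn3 (log2 -0.79).

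Of 13 tested NADPH genes 0 passed by genotype, and 2 rose and 1 fell with the block. Those that rose were Pgd (log2 0.57, edgeR adjusted p = 0.0218 with the block) and Taldo1 (log2 0.49, edgeR adjusted p = 0.0244 with the block), both of the pentose phosphate pathway. Nadk2, the mitochondrial NAD kinase gene, fell (log2 -0.67, edgeR adjusted p = 0.032 with the block). Mthfd1l, a mitochondrial folate enzyme, was the 1 gene of the pathway lists that fell with passage (slope -0.34 ± 0.07 SE, edgeR adjusted p = 0.0264). Of 8 genes for superoxide and peroxide removal 0 passed by genotype, and with the block Sod3, the extracellular superoxide dismutase gene, fell (log2 -0.79, edgeR adjusted p = 0.00443). Oxr1, an oxidation resistance gene, rose with passage (slope 0.32 ± 0.06 SE, edgeR adjusted p = 0.0222). The call for Mthfd1l ended without WT passage 2 or any KO library, and that for Oxr1 without any 1 library of passages 2 and 4.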

How the data were processed

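RNA-seq of 6 MEF libraries was used. The submitters' processing notes name Trimmomatic 0.39 (a read trimmer), RSEM and the GRCm38 build. The version of RSEM, its annotation and its strand setting are each not stated in the sources used here. Deposited were tables of expected counts, of which 12.1% to 15.8% of values per library are not whole because RSEM divides ambiguous reads, and TPM values, which the authors' RSEM run scaled for length. Of 55487 genes 55227 matched GENCODE M21 symbols.

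Expected counts were rounded, filtered (minimum count 10 by genotype), scaled by TMM and tested with edgeR 4.0.16 in R 4.3.3 (quasi-likelihood, robust, 2-sided), with Benjamini-Hochberg adjustment over 16603 genes and a threshold of 0.05. Residual degrees of freedom were 4 (genotype), 3 (passage) and 2 (interaction). Alternatives used DESeq2 1.42.0 and limma 3.58.1 on log2(TPM + 1), other scaling, no filter, each library left out and passage as a replicate block. Libraries of the same passage deviated together from their genotype means (r of 0.488, 0.137 and 0.416 over genes at passages 2, 3 and 4). Between different passages r ran from -0.428 to -0.00332. Deviations from a genotype mean add up to 0 over its libraries. Positive values within passages therefore force negative ones between passages on balance, and the negative range adds no separate evidence. None of the r values separates a change with passage from a shared culture, day or batch, which the labels do not state. Every pair of libraries differed by more than sampling noise (chi-square per degree of freedom at least 32.6). A count of 0 allows up to 3 counts, or 0.0431 to 0.124 CPM, for counting error only. The fits were tested on simulated data.

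The named genes are all 10 members, 6 fixed partners (Bach1, Mafg, Nfe2l1, Sqstm1, Slc7a11 and Txn1) and called list genes whose log2 CPM averaged 2 or more, at most 3 per list, test and direction. Outside this rule, Aldh1a1 and the list genes named from the blocked fit (Bach1 and Slc7a11 apart) were chosen after their values were seen; the 2 protein-coding genes most correlated with each member were found, and 4 are printed. Nnt was left out because its symbol names more than 1 gene identifier. Members and lists were chosen with earlier results of these data known. Erythroid markers had 0 tested members (sums of 0.258 to 0.726 CPM).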

Additional observations from a re-analysis of the deposited data

How the results depend on the processing

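With passage as a replicate block, genotype calls went from 412 to 1835 over all genes, from 0 to 8 among members and from 2 to 26 among other pathway genes. Leaving out both libraries of passage 2, 3 or 4 from the blocked fit, an alternative chosen after seeing the data, gave 639, 248 and 3197 genes, 6, 2 and 6 members, and, for passages 2 and 4, 7 and 38 pathway genes. DESeq2 called 1661 genes, 5 members and 26 pathway genes by genotype, 1709 genes and 17 pathway genes by passage, and 83 genes for the interaction. Without a filter the counts were 846, 1, 15, 2443, 23 and 289 in the same order. Effective lengths as offsets left 1 pathway gene by genotype. On the log2(TPM + 1) scale 14 pathway genes passed by passage and 2 genes for the interaction, and genotype calls were 219 higher and 168 lower, against 155 and 257 by edgeR; the median interaction of all genes was then 0.15. Following the genotype tag set the KO library of passage 2 alone against 5 others, including the KO-titled ones of passages 3 and 4. The log2 difference then changed sign for Nqo1 (-1.08), Hmox1 (-0.25), Gclc (-0.27), Gclm (-0.25), Srxn1 (-0.37), Mafg (-0.046) and Sqstm1 (-0.022). With 1 library of passage 2 as its KO group, that fit cannot tell genotype from passage, so no conclusion is drawn from these signs. The KO-titled libraries of passages 3 and 4 had 29034 and 17819 Xist counts, against 5 to 12 in the WT-titled libraries.

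Leaving out 1 library gave 38 to 847 genes, 0 to 1 members and 0 to 13 pathway genes by genotype, 278 to 1286, 0 to 5 and 2 to 16 by passage, and 0 to 10 genes for the interaction. The slope of Nfe2l2 then ran from -0.0046 to 0.14, that of Gsr from -0.058 to 0.041 and that of Txn1 from -0.31 to 0.016. Gsr's slope was 0.045 on the log2(TPM + 1) scale and 0.021 with effective lengths, the interaction of Nfe2l2 was 0.013 on the former, and Txn1 was -0.039 by genotype in the blocked fit without passage 2. The cause of these changes was not tested. With 3 libraries per genotype, the number of libraries limits the precision.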
